A study of Mus musculus with 12 samples.

Results

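The 36 genes described here encode aminoacyl-tRNA synthetases, the enzymes that join each amino acid to its tRNA. They were taken by symbol from the listed members, 20 cytosolic and 16 mitochondrial, and all 36 were found among the 24259 gene symbols of the expression table. RNA was measured in fully grown germinal vesicle (GV) stage oocytes of 3-week-old female mice, collected 46 h after 5 IU of PMSG, a gonadotropin that drives follicle growth. Wild-type (WT) mice were compared with mice homozygous for *Lsm14b* tm1a(KOMP)Mbp, a knockout-first allele with an inserted reporter, called KO here, which removes an RNA-binding protein of the oocyte cytoplasm. The allele is present in every cell of the animal, so the ovary around the oocyte also lacks the gene, and both genotypes were kept on C57BL/6J. About 1500 oocytes, pooled over animals, were lysed with cycloheximide, a drug that holds ribosomes on mRNA, and each lysate was spread on a sucrose gradient. Fractions 1 to 10 were pooled as the RNP pool (free and light ribonucleoprotein particles) and fractions 11 to 28 as the polysome pool, which gave 3 libraries for every combination of genotype and pool. Nothing in the labels says that replicates came from separate groups of mice, so p-values measure only the spread between these libraries, which may be technical.

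Each cytosolic enzyme charges the tRNAs used by ordinary ribosomes. A separate nuclear gene, named with a final 2 in this set, usually serves the ribosomes inside mitochondria. The enzymes fall into class I and class II by the fold of their catalytic core, and *Eprs* holds both in a single protein. The 8 cytosolic members *Dars*, *Eprs*, *Iars*, *Kars*, *Lars*, *Mars*, *Qars* and *Rars* sit in the multi-tRNA synthetase complex (MSC), held together by the scaffold proteins AIMP1, AIMP2 and AIMP3, the last encoded by *Eef1e1*. In many cells, uncharged tRNA activates the kinase GCN2, and the transcription factor ATF4 then raises cytosolic synthetase genes through C/EBP-ATF response elements.

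The element TGATGNAA was looked for on both strands of the RefSeq promoter windows (GRCm38.p6, 250 bases before to 50 after the gene's start), which were matched for 27 of the 36 members. It was present in 5 of these 27 (18.5%) and in 1219 of 27025 genes with a window (4.51%). The 5 are cytosolic members and are shown because the ATF4 response acts through such elements in many cells. Capitals mark the element, which stands as its reverse complement except in *Yars*, and each line is read 5′ to 3′ on the gene's strand.
Aars, chr8:111033841-111033868, plus strand: gcgggtcactTTTCATCAgagcgctctg
Gars, chr6:55037961-55037988, plus strand: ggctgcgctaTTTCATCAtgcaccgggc
Iars, chr13:49682127-49682154, plus strand: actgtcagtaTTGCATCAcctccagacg
Tars, chr15:11399656-11399683, minus strand: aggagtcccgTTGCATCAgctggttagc
Yars, chr4:129189896-129189923, plus strand: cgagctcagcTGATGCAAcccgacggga
A match of letters is a description of the window and does not show that a factor binds there. In these oocytes the 5 genes lay at very different levels, from *Iars* at a mean of 50.3 FPKM to *Yars*, listed at 0 in 11 of 12 libraries.

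*Lsm14b* itself followed the labels. In WT oocytes it stood at 34.6, 29.3 and 27.4 FPKM (fragments per kilobase of transcript, scaled to the mapped fragments of the library) in the RNP pool and at 11.3, 15.3 and 13.2 in the polysome pool. In the 6 KO libraries it did not pass 0.893 FPKM. The oocyte markers, such as *Gdf9* and *Bmp15*, were present in every group (8 of 8). Blood markers were at or near 0, with 5 of 6 listed at 0 in all libraries of each group. The 10 markers of granulosa and cumulus cells summed in WT to 31.3 to 35.3 FPKM (RNP) and 27.2 to 75.5 (polysome), and in KO to 42.7 to 65.5 (RNP) and 81.1 to 103 (polysome). *Foxl2*, which defines granulosa cells, was at 0 in every group but KO RNP, while other markers of these cells were present. In the polysome pool *Inha* read 9.58, 0 and 8.11 FPKM in WT and 51.4, 39.4 and 39.5 in KO. *Cyp19a1* read 62, 19 and 32 there in WT and 14.6, 23.5 and 34.5 in KO, which overlapped. The part of these cells in the results below was not tested, and a change in cell number cannot be told apart from a change in RNA per cell. The most frequent low value of FPKM times transcript length put the depth at roughly 4.94 to 8.01 M fragments per library (M, mega). In KO polysome replicate 2, 10 genes took 34.7% of all FPKM, against 11.6% to 14.7% in the others.

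The members covered more than 3 orders of magnitude in level. The mean over the 12 libraries was at least 20 FPKM for 5 members, 5 to 20 for 10, 1 to 5 for 10 and below 1 for 11, with a median of 2.54. Free cytosolic members had a median of 9.20, MSC members 4.07 and mitochondrial members 1.25. FPKM is scaled to transcript length, which allows only a rough comparison of levels between genes. The scaling does not correct for amplification without molecular identifiers or for bases shared with other genes. The mitochondrial members ran from *Fars2* at a mean of 125, the highest of all 36, to *Nars2* at 0.118.

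**Figure D1:**
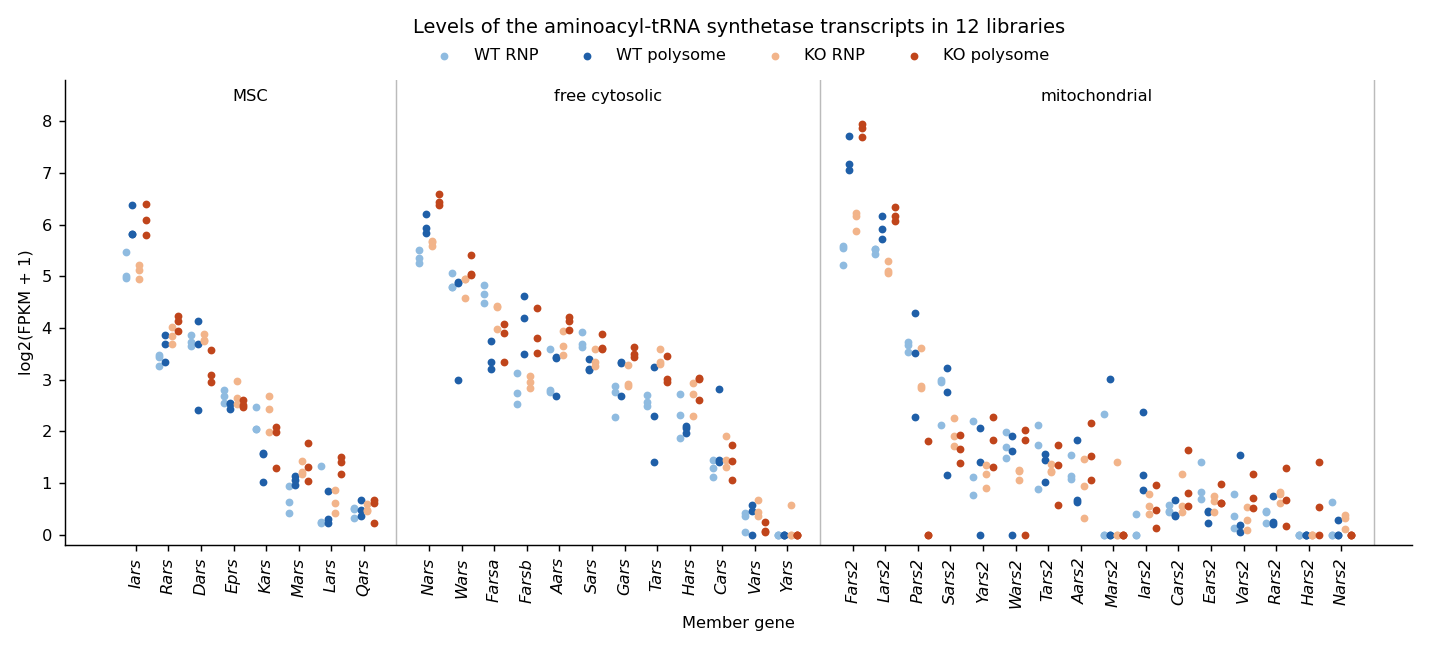
Level of each of the 36 members, as log2(FPKM + 1), with 1 point for each of the 12 libraries coloured by genotype and pool. Members are ordered within the MSC, free cytosolic and mitochondrial groups by mean level, and *Fars2* stands highest while *Yars* is listed at 0 in 11 libraries.

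For phenylalanine, the mitochondrial enzyme's *Fars2* stood above the cytosolic enzyme's alpha subunit *Farsa*, by a margin that differed between pools. WT means were 43.2 FPKM for *Fars2* and 24.3 for *Farsa* in RNP libraries, and 162 and 9.95 in polysome libraries. Over the 12 libraries *Farsa* had a mean of 16.4 and the beta subunit *Farsb* 11.1, both below *Fars2*. *Nars*, for asparagine, was the next highest member at 60.4. It was followed by *Lars2*, for mitochondrial leucine, at 53.2, a level that can include fragments of ribosomal RNA, as given below. Then came *Iars*, for isoleucine, at 50.3, and *Wars*, for tryptophan, at 28.2. Below these came *Farsa* and *Rars*, the arginine enzyme of the MSC, at 12.7.

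At the other end, *Yars*, for tyrosine, was seen in 1 library, at 0.485 FPKM. The locus given for *Yars* in the expression table, chr4:129189793-129261404, runs beyond the gene, which ends at 129219607. *Hars2* was listed at 0 in 10 libraries, *Mars2* in 9 and *Nars2* in 7. *Qars*, *Vars*, *Yars* and *Nars2* did not reach 1 FPKM in any library. A listed 0 can also be a failed estimate of the authors' software, so it is not read as absence. *Lars*, the cytosolic leucine enzyme, had a mean of 0.790, far below *Lars2*, whose level can include fragments of ribosomal RNA, as given below. *Mars2* was 0 in most libraries but 7.09 in WT polysome replicate 3 and 4.08 in WT RNP replicate 2, and such values rest on single libraries.

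The first comparison asks which synthetase mRNAs had a different share of the polysome pool than of the RNP pool in WT oocytes. FPKM is scaled within each library, so a difference between pools does not show where most of an mRNA lay. Of the 23 members that reached 1 FPKM in at least 3 of the 6 libraries, *Fars2* and *Iars* were higher in the polysome pool and *Farsa* was lower (limma, Benjamini-Hochberg adjusted p under 0.05). These 3 calls stand beside 14.7% of the 9574 genes tested. The median change of the 23 was -0.21 on the log2(FPKM + 1) scale, against -0.09 over all genes tested, and 9 (39.1%) lay above 0 against 45.7%. The sign of this median was not stable, since it was 0.19 with a filter at 5 FPKM (8 of 14 members above 0) and 0.0084 without WT polysome replicate 3 (12 of 23 above 0). Polysome and RNP values did not overlap for 5 members that were higher and 4 that were lower in the polysome pool, where 16.7% and 17.9% of all genes tested did so.

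*Fars2* gave the largest difference between pools in WT oocytes among the members tested. In the RNP pool it read 47.0, 46.0 and 36.5 FPKM and in the polysome pool 209, 132 and 144. Every polysome library was above every RNP library. The difference was 1.86 on the log2(FPKM + 1) scale (SE 0.21, adjusted p = 0.000948, limma), or 3.63-fold on that scale. It stayed past the threshold with each library left out in turn. The gene spans chr13:36117412-36726280 (GRCm38, plus strand), and 616 of its exonic bases in GENCODE M21 (10.7%) are shared with *Lyrm4* and *Nrn1*. The locus given for it in the expression table is shorter, chr13:36117641-36537595, and holds 0 of these shared bases.

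*Farsa* and *Farsb*, which together make up the cytosolic enzyme, lay on opposite sides. *Farsa* (chr8:84856989-84869257) read 21.3, 27.5 and 24.2 FPKM in the RNP pool and 12.5, 8.20 and 9.15 in the polysome pool. All 3 polysome values were lower, and the difference was -1.22 (SE 0.30, adjusted p = 0.0277, limma). *Farsb* (chr1:78417975-78488897) read 7.77, 4.79 and 5.70 in the RNP pool and 10.3, 17.2 and 23.6 in the polysome pool. Its polysome values were all higher, but the difference of 1.30 (SE 0.40) missed the threshold, with adjusted p = 0.0654 (limma). The ratio of *Farsa* to *Farsb* came to 2.74, 5.74 and 4.24 for RNP and to 1.21, 0.478 and 0.388 for polysome libraries of WT. In KO oocytes it was 2.03, 3.32 and 3.01 in the RNP and 0.697, 1.21 and 0.878 in the polysome libraries, so the pools did not overlap in either genotype. This ratio was looked at after the values of both genes were seen and is a description only. The call of *Farsa* was lost in 5 of 6 fits that left out a library, with adjusted p between 0.0554 and 0.109, and kept only without WT polysome replicate 1. *Farsb* was called in the fit without that same library (1.60, adjusted p = 0.0378, limma), and 248 of its exonic bases (9.47%) are shared with *Sgpp2*, whose reads could not be told apart without strand. The locus given for *Farsb* in the expression table, chr1:78310344-78488897, runs far beyond the gene.

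*Iars* (chr13:49682100-49734267), an MSC subunit, read 31.1, 43.4 and 30.4 FPKM in the RNP pool and 55.6, 82.3 and 55.6 in the polysome pool. The groups did not overlap, and the difference was 0.86 (SE 0.24, adjusted p = 0.0468, limma). No fit with a library left out kept this call, with adjusted p between 0.0515 and 0.140. *Nars* read 44.8, 37.5 and 40.1 in RNP and 56.4, 73.2 and 59.9 in polysome libraries, a difference of 0.61 (SE 0.19, adjusted p = 0.0683, limma) that missed the threshold. *Wars* read 26.9, 26.9 and 32.5 in RNP and 28.8, 28.2 and 6.99 in polysome libraries, so its WT polysome value turned on replicate 3. *Rars* lay at 9.84, 10.2 and 8.59 in RNP and 9.10, 13.6 and 11.9 in polysome libraries, which overlapped.

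The same comparison in KO oocytes gave 6 called members of the 25 tested, beside 29.2% of 9851 genes. *Fars2*, *Lars2*, *Iars*, *Farsb* and *Nars* were higher in the polysome pool and *Pars2* was lower. The median change was 0.25 against -0.04 over all genes tested, and 16 members (64.0%) lay above 0 against 47.8%. The pools did not overlap for 10 members that were higher and 2 that were lower in the polysome pool, against 22.5% and 21.7% of all genes tested. *Lars*, among the 10, reached 1 FPKM in the polysome pool and not in the RNP pool, so the filter itself favoured a higher polysome value for it. *Aars2* and *Yars2* also had enough libraries at 1 FPKM or more in the polysome pool but not in the RNP pool. *Pars2*, *Tars2* and *Wars2* had enough in the RNP pool but not in the polysome pool, which favoured a lower polysome value. With no filter on low values, 20 of 36 members lay above 0 against 45.5% of all genes, with a median of 0.11 against -0.04.

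*Fars2* read 58.0, 74.0 and 71.0 FPKM in the KO RNP libraries and 208, 233 and 247 in the KO polysome libraries, with no overlap. The difference was 1.75 (SE 0.13, adjusted p = 2.26e-05, limma). *Nars* read 50.6, 47.1 and 50.1 in RNP and 86.0, 96.1 and 82.8 in polysome libraries, a difference of 0.83 (SE 0.13, adjusted p = 0.00123, limma). *Iars* read 36.5, 33.7 and 29.9 in RNP and 55.1, 83.4 and 66.8 in polysome libraries, a difference of 1.00 (SE 0.18, adjusted p = 0.00303, limma). For these 3 genes the lowest polysome library stood above the highest RNP library, and the calls held with each library left out. *Farsb* read 7.37, 6.14 and 6.73 in RNP and 20.0, 13 and 10.5 in polysome libraries, a difference of 0.96 (SE 0.28, adjusted p = 0.0313, limma). That call was kept in 1 of 6 fits that left out a library, the one without KO polysome replicate 3, and the adjusted p ran from 0.0195 to 0.0944. Its partner *Farsa*, at 14.9, 20.4 and 20.3 in RNP and 13.9, 15.8 and 9.21 in polysome libraries, overlapped and was not called, with a difference of -0.50 (SE 0.25).

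*Lars2* (chr9:123366927-123462666) read 33.5, 32.5 and 38.1 FPKM in the KO RNP libraries and 80.4, 66.3 and 70.8 in the KO polysome libraries. The difference was 1.04 (SE 0.14, adjusted p = 0.000757, limma), and it was called with each library left out. In WT oocytes it read 42.5, 45.1 and 45.3 in RNP and 52.2, 59.7 and 71.4 in polysome libraries, a difference of 0.44 (SE 0.19, adjusted p = 0.163, limma). The groups did not overlap in either genotype. The annotated mouse *Lars2* transcript carries a stretch similar to ribosomal RNA, so fragments of ribosomal RNA can be counted to it. *Rn45s*, the ribosomal RNA precursor, read 3060, 4520 and 4900 FPKM in KO RNP and 11400, 10700 and 10700 in KO polysome libraries, a called difference of 1.42 (SE 0.15, adjusted p = 0.000142, limma). In WT it read 3440, 3900 and 4090 in RNP and 5120, 7910 and 4660 in polysome libraries. *Rn45s* moved with *Lars2* between pools, but not in every comparison of libraries. Among WT polysome libraries, *Lars2* was highest in replicate 3, where *Rn45s* was lowest. Between KO and WT, *Lars2* and *Rn45s* changed by 0.25 and 0.93 in the polysome pool and by -0.35 and 0.10 in the RNP pool. The part of *Rn45s* in the *Lars2* values was not tested.

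*Pars2* (chr4:106651069-106655282), the mitochondrial proline enzyme, went the other way. It read 6.20, 6.32 and 11.2 FPKM in the KO RNP libraries and was listed at 0 in 2 of the 3 KO polysome libraries, with 2.50 in replicate 2. The difference was -2.51 on the log2(FPKM + 1) scale (SE 0.53, adjusted p = 0.00716, limma) and was called with each library left out. Its size depended on the pseudocount, from -4.70 with 0.1 to -1.15 with 5, because of the values at 0. The KO RNP libraries alone were enough to pass the filter, so the filter favoured the direction seen. With no filter on low values the difference was still called (adjusted p = 0.035, limma). In WT oocytes *Pars2* read 12.2, 11.7 and 10.6 in RNP and 10.4, 18.5 and 3.87 in polysome libraries. The WT groups overlapped, and the WT difference of -0.28 (SE 0.50) was not called. No annotated gene overlaps *Pars2*. By a rough estimate its values rested on 0 to 342 fragments a library, against 457 to 2600 for *Fars2*.

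**Figure D2:**
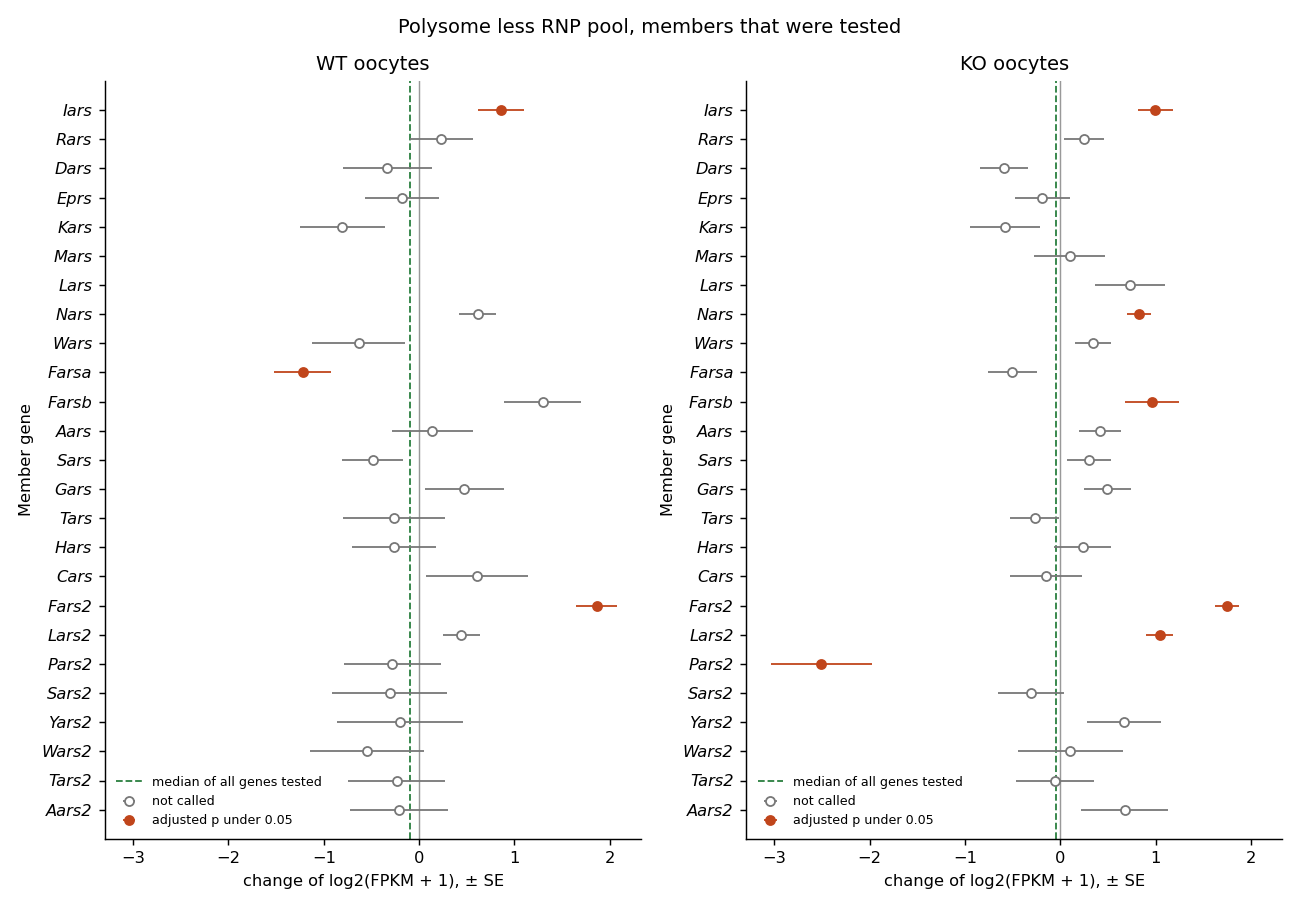
Difference between polysome and RNP pool for each member tested, on the log2(FPKM + 1) scale with its SE, in WT (left) and KO oocytes (right). Filled points had an adjusted p under 0.05, the dashed line marks the median of all genes tested, and *Fars2* lies at 1.86 and 1.75 while *Pars2* lies at -0.28 and -2.51.

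Whether the polysome-to-RNP difference itself depended on genotype was tested over all 12 libraries. None of the 26 members tested was called by limma, where 0.237% of 10949 genes were, and 3 members had an unadjusted p under 0.05. The effect was -2.23 for *Pars2* (SE 0.79, adjusted p = 0.303, limma), 0.60 for *Lars2* (SE 0.23, adjusted p = 0.336, limma) and 0.79 for the serine enzyme *Sars* (SE 0.35, adjusted p = 0.427, limma). *Sars* read 14.2, 11.9 and 11.4 FPKM in WT RNP and 8.07, 9.51 and 8.28 in WT polysome libraries, but 9.10, 8.57 and 11.0 in KO RNP and 13.7, 11.0 and 11.3 in KO polysome libraries. The effect on *Farsa* was 0.72 (SE 0.38, adjusted p = 0.513, limma), so its call in WT oocytes and not in KO oocytes was not shown to be a difference between genotypes.

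In the polysome pool, KO was compared with WT to ask which synthetase mRNAs differed in the RNA sedimenting with ribosomes. *Pars2* was lower and was the 1 member called of 25 tested, beside 10.4% of 9536 genes. Other members leaned upward without passing the test. Their number above 0 was 19 (76.0%) against 55.7% of all genes tested, with a median change of 0.40 against 0.10. Leaving out 1 library gave 16 to 19 members above 0, and rescaling the libraries to the same median gave 19. KO and WT did not overlap for 8 members that were higher in KO, against 18.2% of all genes tested, and for 1 that was lower, against 13.4%. The 8 were *Aars*, *Gars*, *Hars*, *Lars*, *Nars*, *Rars*, *Sars* and *Wars*, and all are cytosolic. *Lars* passed the filter through its KO libraries alone. *Aars2*, *Mars* and *Yars2* had enough libraries at 1 FPKM or more in KO but not in WT. *Pars2* and *Tars2* had enough in WT but not in KO. For these genes the filter favoured the direction seen. With no filter on low values, 24 of 35 members lay above 0 against 55.7% of all genes, with a median of 0.33 against 0.07. An exact permutation test of 3 against 3 libraries cannot go below p = 0.1.

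*Pars2* read 10.4, 18.5 and 3.87 FPKM in the WT polysome libraries against 0, 2.50 and 0 in KO. The lowest WT value was above the highest KO value. The change was -2.76 on the log2(FPKM + 1) scale (SE 0.70, adjusted p = 0.0409, limma). It was called in 2 of the 6 fits that left out a library. Without WT replicate 1 or 2, or without KO replicate 1 or 3, the change was -2.68, -2.29, -2.46 and -2.46, and the adjusted p lay between 0.0819 and 0.130 (limma). The call was also lost with a pseudocount of 0.1, where the change was -4.95, and without the filter on low values, where it was -2.76. With a pseudocount of 5 the change was -1.37 and was called, so the size of the change is not fixed by these data.

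*Aars*, the alanine enzyme, read 5.44, 9.77 and 9.91 FPKM in the WT and 17.6, 16.5 and 14.5 in the KO polysome libraries. All KO values were higher, and the change of 0.91 (SE 0.34) did not pass the test (adjusted p = 0.134, limma). Within the locus that the expression table gives for *Aars*, 77 exonic bases are shared with the predicted gene *Gm24103* and none with a coding gene. *Nars* read 56.4, 73.2 and 59.9 FPKM in WT and 86.0, 96.1 and 82.8 in KO, with no overlap, a change of 0.48 (SE 0.17, adjusted p = 0.112, limma) that was not called. For *Fars2* the WT library at 209 overlapped the KO library at 208, and the change of 0.52 (SE 0.18, adjusted p = 0.110, limma) passed the threshold only without WT polysome replicate 1 (0.72, adjusted p = 0.0294). *Wars* read 32.1, 41.5 and 31.8 in KO, all above WT, with a change of 0.91 (SE 0.48, adjusted p = 0.273, limma). *Rars* read 17.9, 16.5 and 14.4 in KO, also all above WT, with a change of 0.48 (SE 0.30, adjusted p = 0.358, limma). *Lars* read 0.793, 0.170 and 0.242 FPKM in WT and 1.66, 1.26 and 1.82 in KO, without overlap, and was not called.

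The median change in this pool was 0.46 for the 10 free cytosolic members tested (-0.49 to 0.91), 0.33 for the 7 MSC members (-0.21 to 0.90) and 0.18 for the 8 mitochondrial members (-2.76 to 0.65). These ranges overlapped widely, and the groups were not tested against each other. *Iars* (0.09), *Farsb* (-0.19) and *Dars* (-0.21), the aspartate enzyme, lay near or below 0 with overlapping groups. *Gars* and *Tars*, which carry the response element shown above along with *Aars* and *Iars*, gave 0.41 (SE 0.36) and 0.83 (SE 0.53), and neither was called.

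**Figure D3:**
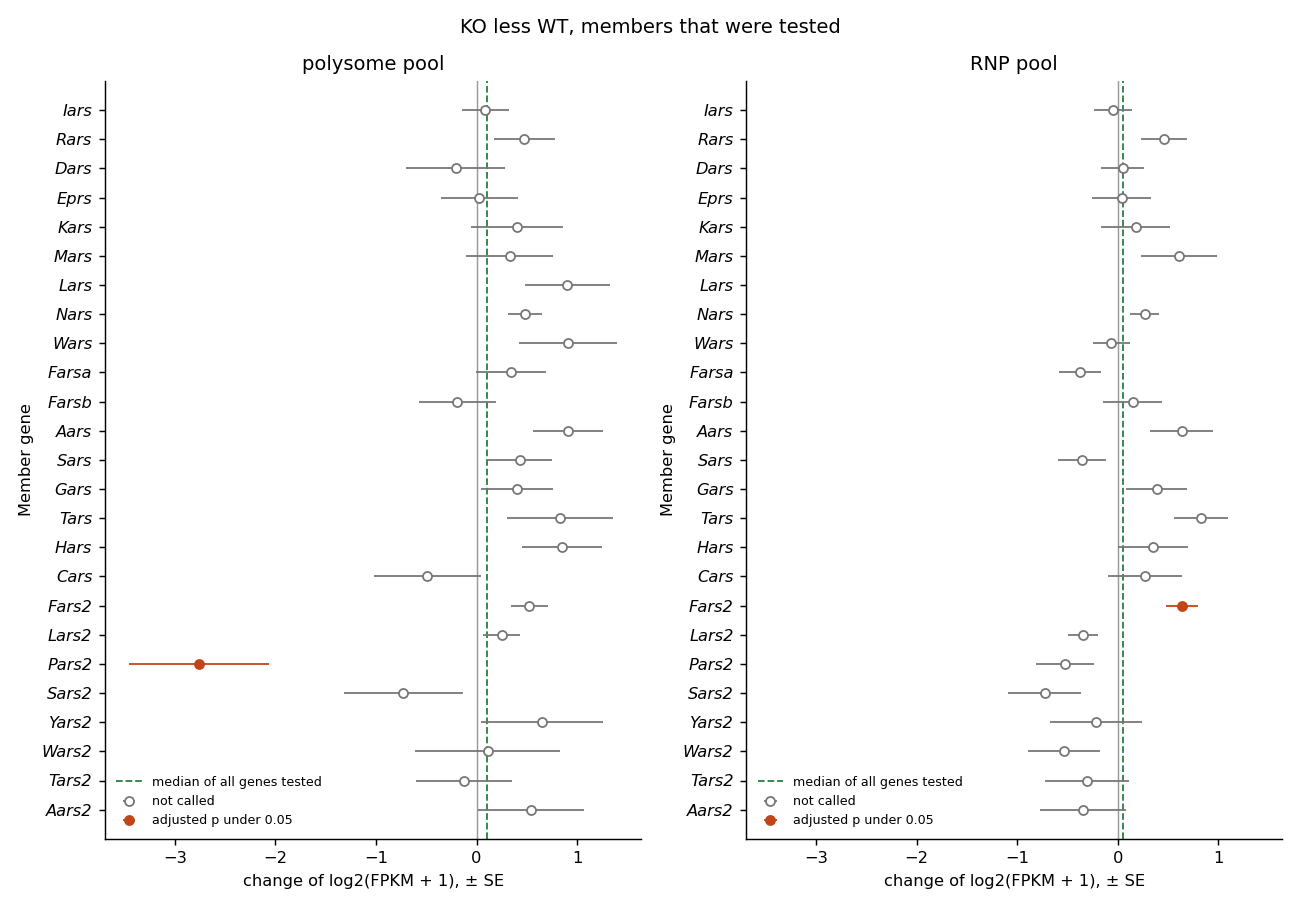
Difference between KO and WT for each member tested, on the log2(FPKM + 1) scale with its SE, in the polysome pool (left) and the RNP pool (right). Filled points had an adjusted p under 0.05, the dashed line marks the median of all genes tested, and the called members are *Pars2* at -2.76 in the polysome pool and *Fars2* at 0.64 in the RNP pool.

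In the RNP pool, *Fars2* was the 1 member called of 24 tested, and it was higher in KO, beside 20.7% of 9931 genes called. The members' median change was 0.05, the same as over all genes tested, and 13 (54.2%) lay above 0 against 53.3%. KO and WT did not overlap for 6 members that were higher (20.7% of all genes) and 4 that were lower (18.4% of all genes). *Mars*, among the 6, reached 1 FPKM in KO libraries alone, so the filter favoured its direction. *Aars2* had enough libraries at 1 FPKM or more in WT but not in KO, which favoured its fall. *Tars2* had enough in KO but not in WT, and still lay below 0. Of the cytosolic members tested, 12 of 16 lay above 0. Of the mitochondrial members tested, 7 of 8 lay below 0, *Fars2* being the other. Only 8 of the 16 mitochondrial members passed the filter. Among those not tested, *Cars2*, *Iars2*, *Nars2* and *Rars2* had a higher mean in KO, and *Ears2*, *Mars2* and *Vars2* a lower one. The balance of these groups was not tested.

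*Fars2* read 47.0, 46.0 and 36.5 FPKM in WT and 58.0, 74.0 and 71.0 in KO oocytes, with no overlap. The change was 0.64 (SE 0.16, adjusted p = 0.0226, limma). It was lost without KO RNP replicate 2 (0.57, adjusted p = 0.0979, limma) or replicate 3 (0.60, adjusted p = 0.0863, limma). *Tars*, the threonine enzyme, read 4.90, 4.59 and 5.51 in WT and 9.15, 8.91 and 11.0 in KO, again with no overlap. Its change of 0.83 (SE 0.27) came just short of the threshold (adjusted p = 0.0557, limma). It passed with a filter at 5 FPKM or with the libraries rescaled to the same median. *Lars2* was lower in every KO library than in every WT library, and its change of -0.35 (SE 0.15, adjusted p = 0.135, limma) was not called. *Pars2* read 12.2, 11.7 and 10.6 in WT and 6.20, 6.32 and 11.2 in KO, a change of -0.53 (SE 0.29, adjusted p = 0.230, limma) with overlap in KO RNP replicate 3. *Nars* was higher in each KO library, by 0.27 (SE 0.14), and was not called. *Rars* read 13.4, 11.9 and 15.3 in KO, all above WT, a change of 0.46 (SE 0.23, adjusted p = 0.197, limma) that was not called. *Wars* read 29.7, 23.0 and 29.9 in KO and overlapped WT, with a change of -0.07 (SE 0.19). *Iars* and *Farsb* gave -0.05 and 0.15 with overlapping groups.

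**Figure D4:**
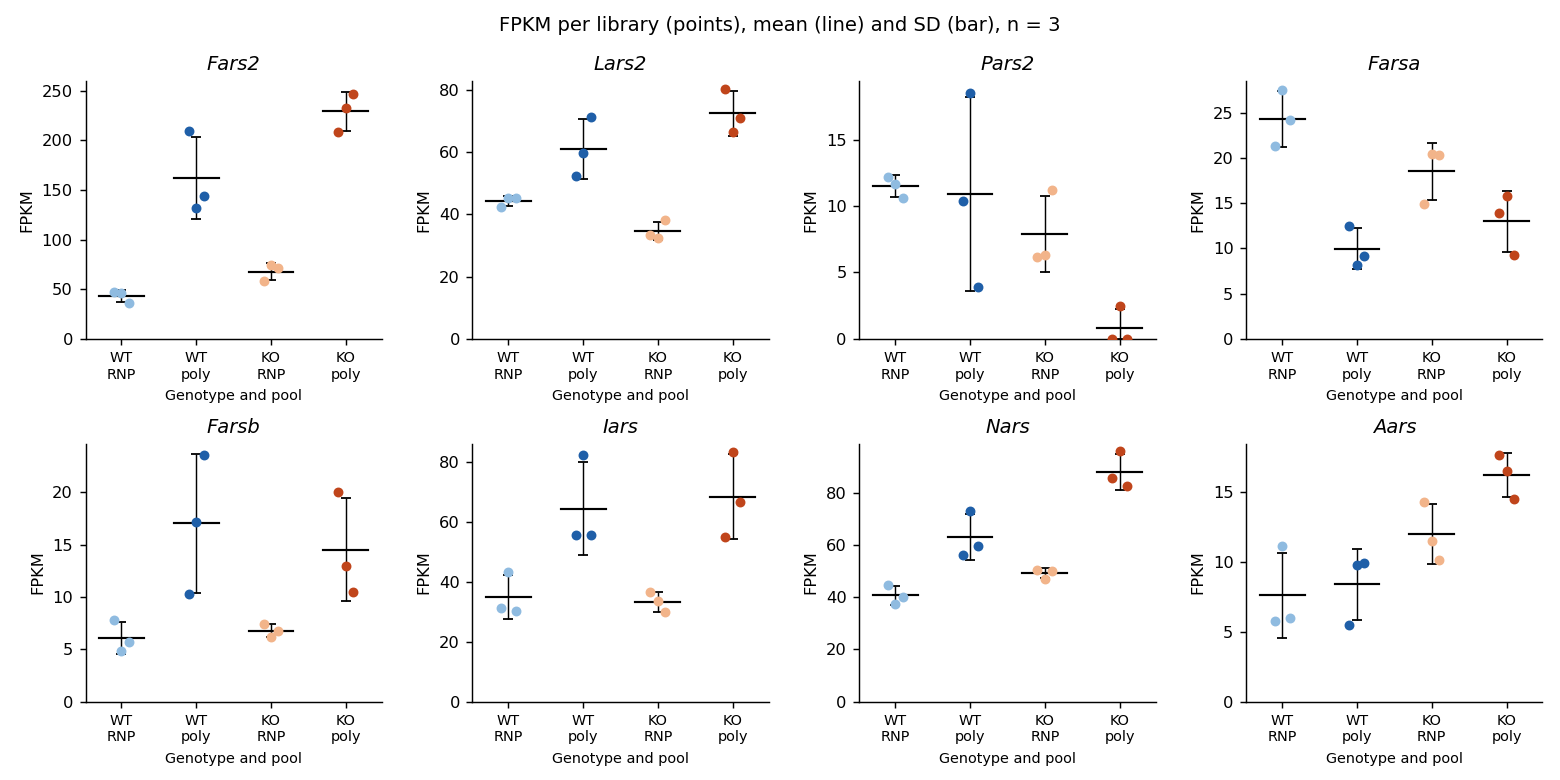
FPKM of *Fars2*, *Lars2*, *Pars2*, *Farsa*, *Farsb*, *Iars*, *Nars* and *Aars* in each library (points), with the mean (line) and SD (bar, stopped at 0) of 3 libraries for each genotype and pool. *Fars2* polysome libraries lie between 132 and 247 FPKM and its RNP libraries between 36.5 and 74.0, while *Pars2* is listed at 0 in 2 of 3 KO polysome libraries.

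Of the MSC scaffold genes, *Eef1e1*, encoding AIMP3, was lower in KO oocytes in both pools. It read 176, 139 and 144 FPKM in the WT and 46.8, 40.7 and 45.4 in the KO RNP libraries. In the polysome pool it read 93.8, 59.5 and 66.9 in WT and 19.1, 22.8 and 12.4 in KO. All KO libraries lay below all WT libraries in both pools. It fell by 1.76 in the RNP pool (SE 0.14, adjusted p = 6.47e-05, limma) and by 1.97 in the polysome pool (SE 0.28, adjusted p = 0.00544, limma) on the log2(FPKM + 1) scale. Between pools *Eef1e1* was lower in the polysome pool in both genotypes, by -1.07 in WT (adjusted p = 0.00950) and -1.28 in KO (adjusted p = 0.00276, both limma). *Aimp2* read 65.9, 72.0 and 64.1 in KO RNP and 36.6, 30.2 and 42.5 in KO polysome libraries, a called difference of -0.88 (SE 0.16, adjusted p = 0.00331, limma), though 29.4% of its exonic bases are shared with *Eif2ak1*. *Aimp1*, at a mean of 2.12 FPKM, was not called in any comparison. In the polysome pool, *Aimp1* and *Aimp2* were also lower in every KO library than in every WT library. Such a gap was seen for 13.4% of all genes tested. Their changes of -0.84 (SE 0.44) and -0.57 (SE 0.21) were not called (adjusted p = 0.266 and 0.130, limma). In the RNP pool their changes were -0.31 and 0.10, with overlapping groups. No MSC enzyme was called between KO and WT in either pool by limma, and none of the 7 tested in the polysome pool or the 6 in the RNP pool had an unadjusted p under 0.05.

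**Figure D5:**
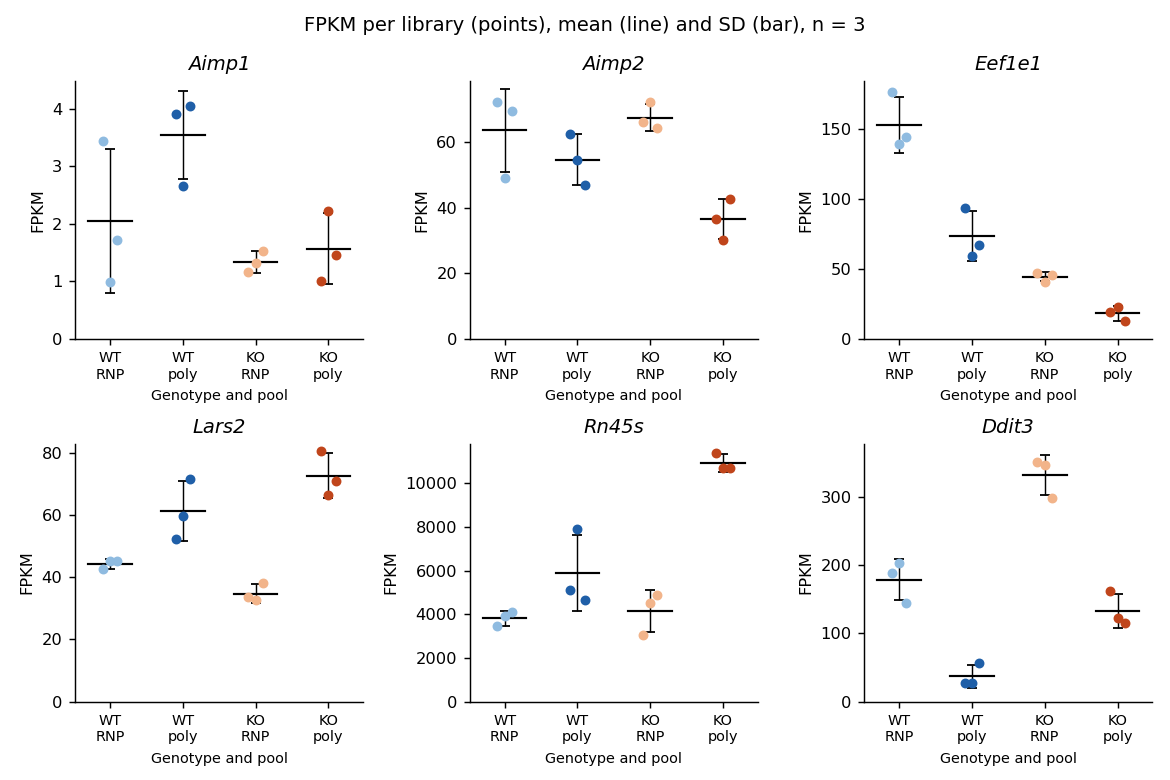
FPKM of the MSC scaffold genes *Aimp1*, *Aimp2* and *Eef1e1*, of *Lars2* and *Rn45s*, and of *Ddit3* in each library (points), with the mean (line) and SD (bar) of 3 libraries. *Eef1e1* KO libraries lie at 12.4 to 46.8 FPKM against 59.5 to 176 in WT, and *Rn45s* is highest in the KO polysome libraries.

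Of the other aminoacylation and proofreading genes, 9 of 14 were tested between genotypes in each pool, and 1 was called in the polysome pool (10.4% of all genes tested were) and 3 in the RNP pool (20.7% were). *Gatc*, a subunit of the mitochondrial enzyme that makes glutaminyl-tRNA by amidation, rose in the polysome pool by 1.44 (SE 0.35, adjusted p = 0.0341, limma), from 8.08, 4.42 and 9.11 FPKM to 19.3, 20.9 and 21.5. In the RNP pool, 1 of these genes rose and 2 fell. *Dtd1*, which removes D-amino acids from tRNA, changed by 1.45. *Sepsecs*, which completes selenocysteinyl-tRNA, and *Ptrh2*, a peptidyl-tRNA hydrolase, changed by -1.46 and -2.03 (adjusted p between 0.0102 and 0.0105, limma). The locus given for *Ptrh2* in the expression table, chr11:86583863-87555823, runs far beyond the gene at chr11:86683985-86692457.

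Among 21 genes of tRNA end maturation, 1 of 15 tested fell in the polysome pool, while 4 rose and 2 fell of 17 in the RNP pool. Over all genes tested, 10.4% were called in the polysome pool and 20.7% in the RNP pool. *Pop7*, a protein subunit of RNase P, fell in both pools, from 241, 250 and 160 FPKM to 40.2, 51.9 and 24.8 in the RNP pool and from 231, 134 and 175 to 49.6, 30.4 and 43.0 in the polysome pool. The changes were -2.48 (SE 0.26, adjusted p = 0.000377) and -2.10 (SE 0.25, adjusted p = 0.00296, both limma). *Trnt1*, which adds the CCA end that synthetases charge, fell in the RNP pool, with a change of -2.14 (SE 0.36, adjusted p = 0.00373, limma), from 18.9, 28.6 and 31.2 FPKM to 7.72, 6.04 and 2.60. *Pop4*, *Pop5* and *Rpp30*, of the same RNase P complex as *Pop7*, rose there by 0.71, 0.80 and 1.03. *Tsen34*, of the tRNA splicing endonuclease, read 0, 0 and 0.270 FPKM in WT and 4.72, 3.34 and 8.15 in KO in the RNP pool. Its change of 2.49 (SE 0.41, adjusted p = 0.00317, limma) rests on WT values at or near 0. *Tsen34* passed the filter there through its KO libraries alone, so the filter favoured a rise. In the polysome pool it was not called, at -0.58 (SE 0.59).

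The list for sensing of uncharged tRNA and the ATF4 response held 23 genes. In the polysome pool 1 of 15 tested rose and 2 fell, and in the RNP pool 3 of 18 rose and 2 fell, where 10.4% and 20.7% of all genes tested were called. *Ddit3*, which encodes the stress factor CHOP, rose in both pools, from 189, 203 and 145 FPKM to 351, 347 and 299 in the RNP pool and from 26.5, 27.2 and 56.9 to 162, 123 and 115 in the polysome pool. The changes were 0.90 (SE 0.13, adjusted p = 0.00208) and 1.90 (SE 0.30, adjusted p = 0.00782, both limma). *Ddit3* overlaps the member *Mars* on the opposite strand, and 68 exonic bases of *Mars* (1.99%) are shared. *Mars* itself lay between 0.342 and 0.911 FPKM in the WT libraries of the RNP pool and between 1.26 and 1.70 in those of KO, with no overlap, and its change of 0.61 (SE 0.37, adjusted p = 0.289, limma) was not called. *Atf4* rose in the RNP pool by 0.40 (SE 0.10, adjusted p = 0.0205, limma) and was not called, at 0.03, in the polysome pool. *Slc3a2*, a subunit of amino acid transporters, rose in the RNP pool by 0.47. *Cebpb*, a partner of ATF4, and *Ppp1r15a*, which helps to remove the phosphate from eIF2 alpha, fell in both pools, with changes of -2.03 and -0.88 in the polysome pool and of -1.40 and -0.85 in the RNP pool. Of the exonic bases of *Cebpb*, 312 (20.7%) are shared with *Tmem189*. Genes of these lists did not enter the rule for members, and the lists were not tested as sets.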

How the data were processed

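RNA of the polysome and RNP pools was measured in 12 libraries of oocytes, 3 per genotype and pool, grouped by the sample labels. The authors trimmed the reads, used TopHat2 2.0.13 for alignment (mm10) and Cufflinks 2.2.1 for FPKM, the deposited values used here. Smart-seq2 amplification without molecular identifiers precedes FPKM, and FPKM holds no counts. The annotation release is not given in the sources used here. The deposited table also holds the authors' fold changes and p-values between groups and libraries, which were not used. The sources differ on the densest sucrose and on the library kit.

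Tests used limma 3.58.1 in R 4.3.3 on log2(FPKM + 1), with an intensity trend, on genes with at least 1 FPKM in at least 3 libraries of the comparison. p-values were two-sided and adjusted by Benjamini-Hochberg over all genes tested, at 0.05. A fold change on this scale understates the change of low genes. Pools within a genotype, genotypes within a pool, and their interaction over 12 libraries were fitted without a block; comparisons share libraries and are given side by side. Named with every library's value were members called in any comparison, and the 5 cytosolic and 3 mitochondrial members of highest mean. *Aars*, *Tars*, *Sars*, *Lars*, *Mars* and the members at or near 0 were named after their values were seen. Members and lists were chosen with earlier results of these data known. Python 3.11.15, pandas 2.3.3, numpy 2.4.6 and matplotlib 3.10.9 were also used. Gene positions came from GENCODE M21 on GRCm38, and promoters from RefSeq, of which 1 stretch is not reported here. The depth estimate takes the most frequent low value of FPKM times length as 1 fragment, with 200 bases taken off each transcript. It was read from 47 to 123 genes a library with a single transcript, within a fixed range that bounds the result. The alternatives were pseudocounts of 0.1 and 5, no filter, a filter at 5 FPKM, rescaling to the same median, the replicate number as a block, and each library left out in turn.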

Additional observations from a re-analysis of the deposited data

How the results depend on the processing

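The 23 single-member changes recomputed were those with an unadjusted p under 0.05 in the main fits (limma), which makes a turn of sign unlikely. None of these turned its sign under the alternatives run, and the other member changes were not recomputed singly. The median of the members between pools in WT, -0.21 in the report, was 0.19 with a filter at 5 FPKM and 0.0084 without WT polysome replicate 3. The number of called members between KO and WT in the polysome pool, 1 in the report, was 0 with a pseudocount of 0.1, with no filter on low values and with a filter at 5 FPKM. In the RNP pool it rose from 1 to 2, with *Tars* added, with a filter at 5 FPKM or after rescaling to the same median. Leaving out 1 library gave 0 to 1 called members between genotypes in each pool, 1 to 3 between pools in WT, 5 to 6 between pools in KO, and 0 for the genotype effect on the polysome-to-RNP ratio. Without WT polysome replicate 1, the member called between genotypes in the polysome pool was *Fars2*, higher, in place of *Pars2*, lower. In the 5 WT fits that gave 1, that member was *Fars2*. Same-numbered libraries of different groups did not deviate together (correlations of -0.0207 to 0.0255), so the numbers were not taken to pair them. With the replicate number as a block, the called members were 1, 1, 2, 6 and 0 in the 5 comparisons, *Farsa* in WT being the one lost (adjusted p = 0.0638, limma). The cause of these changes was not tested. The 3 libraries a group and roughly 4.94 to 8.01 M fragments (M, mega) in each limit what can be seen of the 11 members that averaged below 1 FPKM.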
